A study of Mus musculus with 16 samples.

Results

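Brown adipose tissue of suckling pups was compared with that of mice past weaning age. The 7 arrays of postnatal day 4 (P4, 4 arrays) and day 10 (P10, 3 arrays) formed the suckling pool, and the 6 arrays of 4-week-old (4W, 3 arrays) and 8-week-old mice (8W, 3 arrays) formed the weaned pool. A gene was taken as switched when all 7 suckling arrays lay above, or all 6 weaned arrays lay above, every array of the other pool in the deposited value table. Genes on the X and Y chromosomes were left out. Of 14908 autosomal genes measured, 4487 (30.1%) met this rule, with 2107 (14.1%) higher and 2380 (16%) lower in weaned mice.

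All animals were C57BL6/N mice, the tissue was whole brown fat, and total RNA was labelled with Cy3 and hybridised to Agilent 1-colour arrays. The labels record no transgene, treatment, sex, housing temperature or feeding, so "suckling" and "weaned" stand for ages alone. The series also holds 3 arrays of embryonic day 18 (E18), which are outside both pools and are given only for orientation. Nothing in the labels says that replicates were separate animals, so each p-value reflects only how far these arrays scatter, and that scatter may be technical.

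Brown fat burns fuel for heat through uncoupling protein 1 in its mitochondria, and sympathetic nerves drive it through beta-adrenergic receptors. Newborn rodents depend on this heat while they live on milk, which is rich in fat and poor in carbohydrate. Weaning onto chow replaces milk fat by starch and sugar, and fat cells can then build fatty acids from glucose through the enzymes of de novo lipogenesis.

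Between 45.7% and 72.4% of spots on an array were well above background, and the share was higher at P10 (60.2% to 72.4%) than at 8W (45.7% to 51.1%). The arrays lay on a pair of slides: 5 suckling arrays were on the slide that held no weaned array, and the other 2 (P4 replicate 1 and P10 replicate 1) shared a slide with all 6 weaned arrays. With slide as a block, the difference therefore rests on those 2 suckling arrays. The P10 arrays read 8.36 to 8.80 for Xist and 2.76 to 3.09 for Ddx3y, while every other age had Xist at 5.07 or lower and Ddx3y at 11.3 or higher. Sex-linked expression thus followed age, and for P10 sex and age cannot be told apart.

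The test was a limma fit of weaned against suckling over all genes, with calls made where the p adjusted by Benjamini and Hochberg's method was below 0.05. It called 7642 genes (51.3%), of which 3621 (24.3%) were higher and 4021 (27.0%) lower in weaned mice. Of the 4487 switched genes 4479 passed, but the rule and the test read the same arrays, so this is a description and no support. The median size of a switched gene's difference was 0.80 on the log2 scale. A difference of at least 2-fold was read for 781 higher and 928 lower genes, and of at least 4-fold for 235 and 314. These counts take dim values as they are, without bounds. Of the switched genes, 195 lower ones were not well above background on any weaned array and 15 higher ones on any suckling array. With slide as a block 4123 genes passed, and with age as a random block, which treats arrays of an age as correlated, 2813 passed. Scaling each array to its own median moved the median difference of all genes from -0.03 to 0.27 and the share of calls that were higher from 47.4% to 74.7%, so small differences below depend on the scaling.

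The rule has a sharp edge. Just inside it, Ccdc97 read 11.46 to 11.65 on the suckling and 11.65 to 11.96 on the weaned arrays. Just outside, Asb6 read 10.65 to 10.92 and 10.03 to 10.65, which touch.

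Fatty acid and triglyceride synthesis had the highest median difference of the 25 pathway lists. Of 24 members measured, 20 rose and 1 fell, 19 did so with no overlap, and the median difference was 2.03 (all genes: -0.03). Fatty acid synthase (Fasn), which assembles palmitate, read 7.42 to 8.39 (median 7.74) on the suckling arrays and 13.42 to 15.13 (median 14.41) on the weaned arrays. The pools were separated by more than either varied, and Fasn was 89.2-fold higher (log2 6.48 ± 0.33 SE, adjusted p = 8.51e-09, limma). Its E18 mean of 11.07 lay between them.

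Acaca, which makes the malonyl-CoA that Fasn uses, went from a suckling median of 12.93 to a weaned median of 17.34 (18.3-fold). Scd1, which desaturates the product, read 11.61 to 13.14 and then 17.24 to 17.91 (39.4-fold, adjusted p = 2.79e-08, limma). Aacs, which turns acetoacetate into lipid precursor, rose 14.8-fold with a weaned range of only 14.49 to 14.76. In these genes no suckling array reached the lowest weaned array.

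Regulators of the pathway were also higher. Srebf1, which drives lipogenic genes, rose 4.69-fold, and Insig1, which retains its precursor in the endoplasmic reticulum, rose 3.10-fold. Mlxipl, the carbohydrate-responsive factor ChREBP, rose 3.34-fold by its brightest probe, but its probes disagreed. Fads2, a polyunsaturated fatty acid desaturase and the list member that fell, was well above background on 4 of 7 suckling arrays and no weaned array, so no fold is given. With slide as a block 16 members rose, 1 fell, and the median was 1.92.

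The promoter of Fasn is shown because this gene had the largest rise of the pathway. It runs from 250 bases before to 50 after the start in RefSeq, build GRCm38.p6, at chr11:120824498-120824797 on the minus strand. Capitals mark CCAAT, read on either strand, where matches may overlap.

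Fasn: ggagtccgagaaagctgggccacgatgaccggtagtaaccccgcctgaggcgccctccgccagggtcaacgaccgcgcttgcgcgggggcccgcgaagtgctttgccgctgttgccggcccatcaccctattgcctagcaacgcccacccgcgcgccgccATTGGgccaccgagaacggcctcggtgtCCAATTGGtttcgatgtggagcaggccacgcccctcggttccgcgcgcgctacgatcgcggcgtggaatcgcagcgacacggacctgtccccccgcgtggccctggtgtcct

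CCAAT was found in 58.33% of the 24 promoter windows of the list and in 37.41% of all 32851 windows. It is not particular to this list. Of the lists described below, CCAAT was in 79.17% of cell division, 59.38% of DNA replication, 80.0% of circadian clock and 33.33% of matrix windows. The sterol response element TCACNCCAC, also read on both strands, was in 1 of the list's 24 windows (4.17%) and in 1.24% of all. A match is a description of letters and not evidence of binding.

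**Figure D1:**
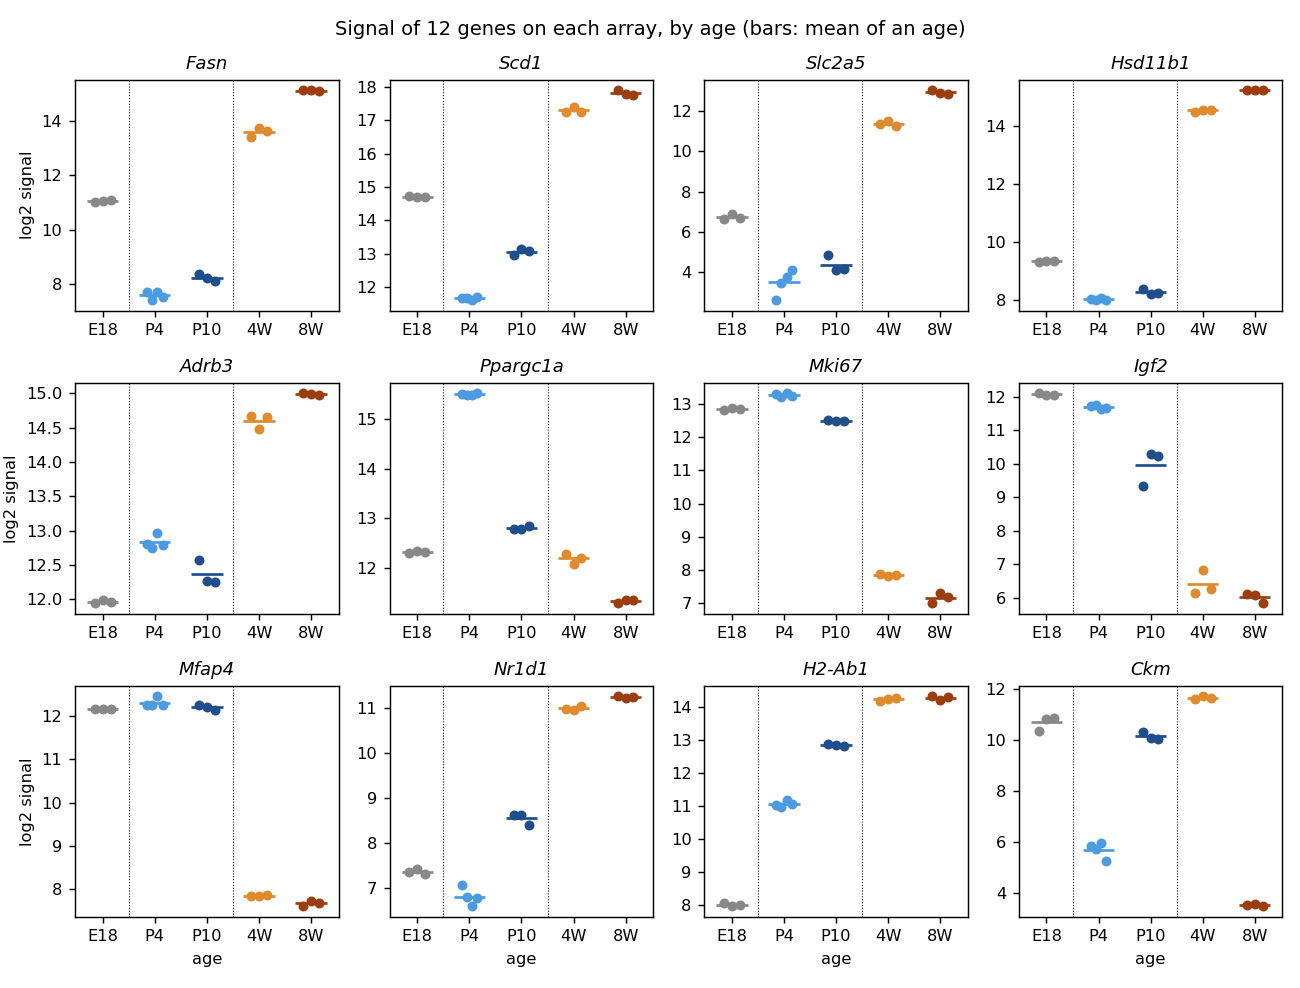
Log2 signal (vertical axis) of 12 genes on each array, grouped by age (horizontal axis), where each dot is an array and each bar the mean of an age; dotted lines separate E18, the suckling pool and the weaned pool. Fasn rises from 7.42 to 8.39 in the suckling pool to 13.42 to 15.13 in the weaned pool, while the muscle gene Ckm is high at P10 and 4W and low at P4 and 8W.

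Sugar entry, glycogen and glycolysis genes were mostly higher too. Of 22 members measured, 16 rose and 1 fell, with a median of 0.66. The insulin-responsive glucose transporter Slc2a4 (GLUT4) read 14.60 to 15.07 on the suckling and 16.55 to 16.61 on the weaned arrays, a 3.41-fold rise (adjusted p = 8.19e-09, limma). Its weaned arrays were nearly level. Liver-type glycogen phosphorylase Pygl rose 23.7-fold and glycogen synthase Gys2 14.5-fold. Tpi1, a glycolytic enzyme, was the member that fell (log2 -0.30), a call that was lost without several single arrays and with slide as a block (adjusted p = 0.513) and turned to 0.26 under array-median scaling.

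The fructose transporter Slc2a5 also rose. It was well above background on 2 of 7 suckling arrays, which read 2.61 to 4.83, and on all 6 weaned arrays, which read 11.25 to 13.03 (adjusted p = 6.01e-09, limma). Most suckling values are therefore at the detection floor, and no fold is given.

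Genes that supply NADPH, the reducing agent of lipogenesis, were mostly higher. Among 12 pentose phosphate and NADPH genes, 7 rose and 2 fell, with a median of 0.54. Malic enzyme Me1 rose 9.39-fold, H6pd 5.65-fold and Pgd 2.87-fold. Mthfd1l, a mitochondrial folate enzyme, and Rpia, an isomerase of the pathway, were the members that fell, by 2.19 and 0.49 on the log2 scale. Mthfd1l was well above background on 3 of 6 weaned arrays and did not pass without P4 (adjusted p = 0.0683, limma). The call of Rpia was lost with age as a random block (adjusted p = 0.0552, limma) and under array-median scaling (log2 -0.15, adjusted p = 0.437, limma).

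Cholesterol synthesis was split. Of 22 members 11 rose and 3 fell (51.3% of all genes passed), with a median of 0.25. Sc5d, which acts late in the pathway, read 9.45 to 9.62 and then 11.68 to 11.80, and Fdft1, which makes squalene, rose 5.48-fold. Hmgcs1, which acts early, fell by 0.80 on the log2 scale and the sterol carrier Stard4 by 0.73. The call of Hmgcs1 was lost under array-median scaling (log2 -0.29, adjusted p = 0.0830, limma) and that of Stard4 with age as a random block (adjusted p = 0.0625, limma). Without P10, 5 members rose and 6 fell, and without 8W 4 rose. Leaving out any single P10 or 8W array also lowered the number that rose, to 6 or 7.

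Genes for burning fat moved both ways. In fatty acid oxidation and ketone metabolism 3 of 27 members rose and 5 fell (51.3% of all genes passed), with a median of -0.01. The arrays did not overlap for 2 higher and 4 lower members (30.1% of all genes). Passing members changed with the scaling, since 16 rose and 2 fell under array-median scaling. Without P10 9 rose, and without P4 9 fell. Cpt1a, the liver-type gate for fatty acids into mitochondria, read 11.01 to 11.19 on the suckling and 9.42 to 10.14 on the weaned arrays (2.42-fold lower, adjusted p = 6.89e-06, limma). The muscle-type counterpart Cpt1b differed by -0.08 (adjusted p = 0.555, limma) and Pdk4, which restrains glucose oxidation, by -0.22 (adjusted p = 0.252, limma). Both of these turned positive under array-median scaling, at 0.40 and 0.33.

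Acot1, a cytosolic acyl-CoA thioesterase, was 8.57-fold lower in weaned mice. Its arrays did not overlap, but its means fell from 13.25 (P4) and 11.53 (P10) to 11.21 (4W) and 7.62 (8W), and the call was lost with slide as a block (adjusted p = 0.0783, limma). Oxct1, which lets tissues burn ketone bodies, rose 1.97-fold.

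In uptake and lipolysis 14 of 27 members rose and 1 fell (all genes: 24.3% and 27.0%, 51.3% either way), with a median of 0.37. Hormone-sensitive lipase Lipe rose 2.23-fold, Acsl5, which activates fatty acids, 4.15-fold, and Slc27a2, a fatty acid transporter, 2.69-fold. Fabp5, a fatty acid binding protein, was the member that fell (2.06-fold lower), a call that was lost under array-median scaling (log2 -0.50, adjusted p = 0.0586, limma). Lpl, lipoprotein lipase, read 16.40 to 17.03 and 16.34 to 17.55 and did not pass (log2 0.28, adjusted p = 0.310, limma). Fabp3 was 5.28-fold higher, yet its mean was 13.79 at P4 and 17.00 at P10, and the call was lost with slide as a block (adjusted p = 0.124, limma).

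**Figure D2:**
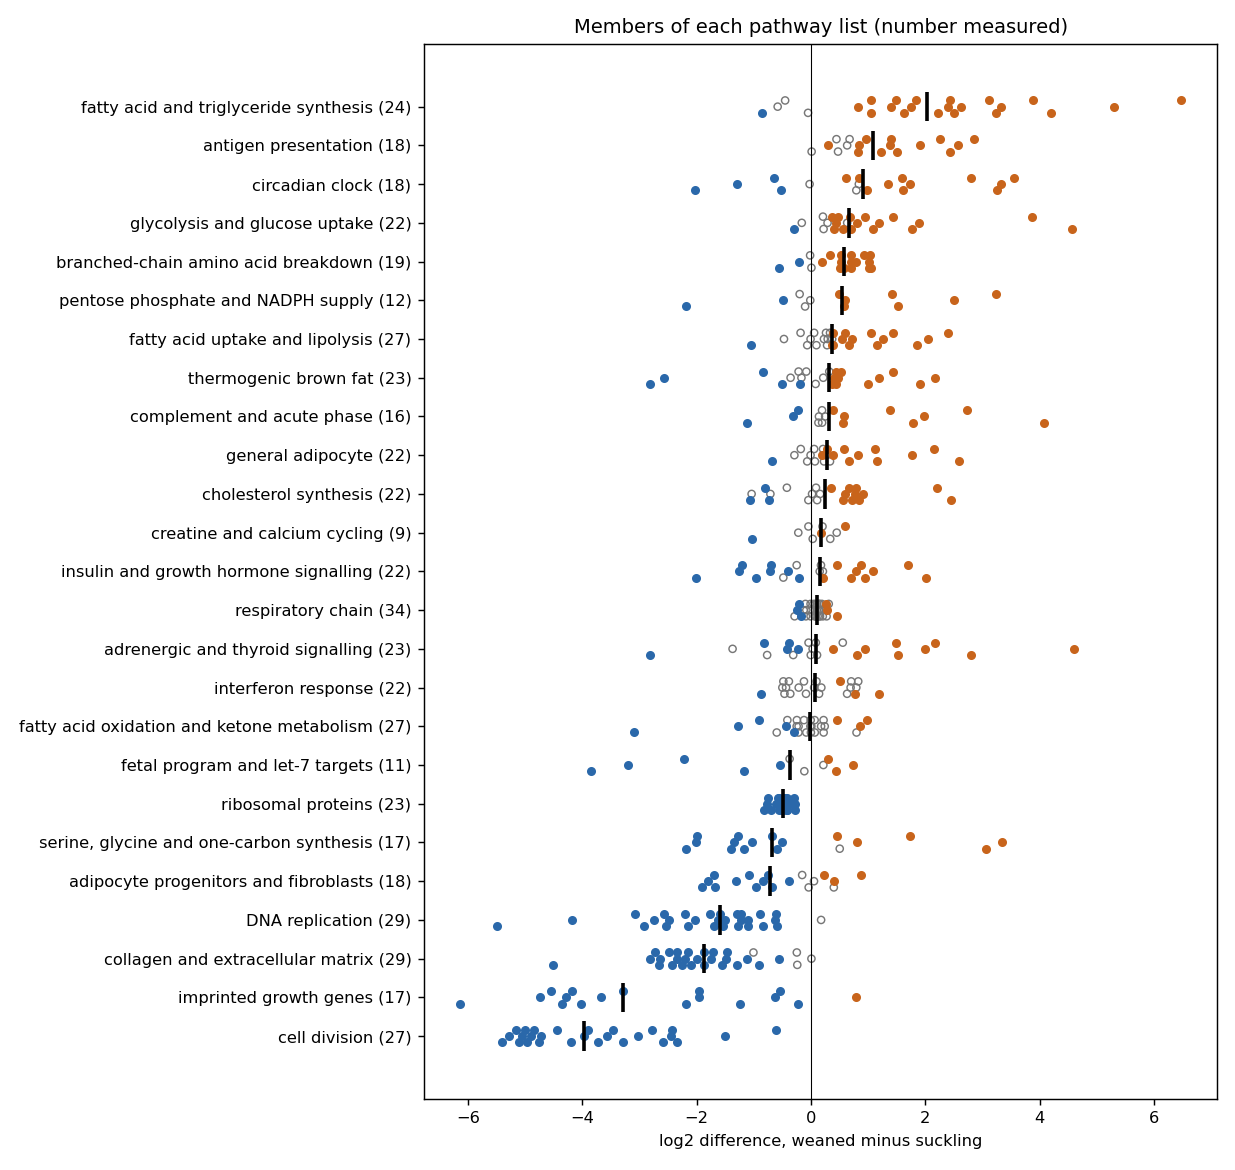
Log2 difference, weaned minus suckling (horizontal axis), for each measured member of 25 pathway lists (vertical axis, number measured in brackets). Filled orange and blue dots passed limma's test as higher and lower, open dots did not, and black bars are list medians; cell division (median -3.98) and fatty acid and triglyceride synthesis (median 2.03) lie at opposite ends.

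The brown fat programme was mixed. Of 23 thermogenic genes 11 rose and 5 fell (51.3% of all genes passed), with a median of 0.32. With slide as a block 5 rose and 1 fell. Without 8W, 2 fell. Among brown fat genes that rose, Elovl3 differed by 1.91 (adjusted p = 0.000793, limma), Prdm16 by 0.47 (0.0227) and Cidea by 0.36 (0.000535). With slide as a block Elovl3 kept its call (adjusted p = 0.0375, limma), while Prdm16 (0.161) and Cidea (0.0614) lost theirs. Ucp1 read 18.52 to 18.80 on the suckling and 17.75 to 18.73 on the weaned arrays, which overlap. Its difference of -0.51 (adjusted p = 0.0191, limma) was not called with slide as a block (adjusted p = 0.229, limma), with age as a random block (0.153) or under array-median scaling (log2 -0.11, adjusted p = 0.593). The 8W mean was 17.80 and the 4W mean 18.60, so the lower values are those of 8W.

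Ppargc1a, the coactivator PGC-1alpha, read 12.79 to 15.51 on the suckling and 11.29 to 12.28 on the weaned arrays (5.97-fold lower, adjusted p = 0.00232, limma). The pools did not overlap, but most of the difference lay between P4 (mean 15.49) and P10 (mean 12.81), and slide as a block gave an adjusted p of 0.0612 (limma). Dio2, which activates thyroid hormone, read 10.31 to 13.34 and 7.38 to 11.03, with P4 highest and 8W lowest.

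Adrb3, the beta-3 adrenergic receptor of fat cells, was a clean switch. It read 12.25 to 12.97 in sucklings and from 14.48 (median 14.83) upward in weaned mice, a 4.49-fold rise (adjusted p = 7.33e-08, limma). Across the 23 adrenergic and thyroid genes 9 rose and 5 fell (51.3% of all genes passed), with a median of 0.08. Of these genes 8 fell without P10, 3 without P4 and 1 without 8W. Adcy10, the soluble adenylyl cyclase, was not well above background on any suckling array and was on all 6 weaned arrays, which makes it at least 8.54-fold higher.

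Of 22 general adipocyte genes 11 were higher and 1 lower (all genes: 24.3% and 27.0%, 51.3% either way). Their median was 0.27, and with slide as a block 5 rose. Leptin (Lep), the satiety hormone of fat, read 5.87 to 6.73 and then 8.66 to 9.07 (6.02-fold, adjusted p = 4.52e-08, limma). Resistin (Retn) rose 4.46-fold, although its E18 mean of 15.69 was above both pools. Adipoq overlapped between the pools and its rise of 0.28 was lost with slide as a block (adjusted p = 0.139, limma).

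In insulin and growth hormone signalling 9 of 22 members rose and 8 fell (51.3% of all genes passed). The growth hormone receptor Ghr rose 3.26-fold and Igfals, which stabilises circulating IGF complexes, 4.02-fold. Igfals was well above background on 5 of 7 suckling arrays, and its call was lost with age as a random block (adjusted p = 0.0806, limma). Socs2, an inhibitor of growth hormone signalling, was 2.40-fold lower.

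Cell division stood at the other end. All 27 measured members of its list fell with no overlap, with a median of -3.98, or -3.29 with the 8 members that have only a bound set to it. Mki67, a marker of cycling cells, read 12.48 to 13.31 (median 13.22) on the suckling and 7.01 to 7.90 (median 7.58) on the weaned arrays. That is 42.5-fold lower (log2 -5.41 ± 0.21 SE, adjusted p = 9.72e-10, limma). Prc1, which bundles spindle microtubules, was 35.8-fold lower, with 4 of 6 weaned arrays well above background. Kif23, a motor of cytokinesis, was not well above background on any weaned array and was at least 7.01-fold lower.

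DNA replication genes fell in 28 of 29 cases, with a median of -1.58, or -1.53 with the 1 member that has only a bound set to it. Tk1, thymidine kinase, was 45.2-fold lower and was well above background on 4 of 6 weaned arrays. Rrm2, a ribonucleotide reductase subunit, was 18.2-fold lower, and Chaf1b, a histone chaperone subunit, read 10.54 to 11.88 and then 8.26 to 8.50. Among the arrays of the shared slide alone the medians of the cell division and replication lists were -3.94 and -1.51. In these bulk samples fewer dividing cells and less of each transcript per cell cannot be told apart.

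The promoters of members of both lists are shown because the lists fell together and hold different promoter letters. In the windows of Mki67 (chr7:135716330-135716629, minus strand) and Prc1 (chr7:80294201-80294500, plus strand), capitals mark the cell cycle element TTTGAA and CCAAT. In that of Chaf1b (chr16:93883651-93883950, plus strand) they mark the E2F motif TTCCCGC. All are read on both strands from RefSeq, GRCm38.p6.

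Mki67: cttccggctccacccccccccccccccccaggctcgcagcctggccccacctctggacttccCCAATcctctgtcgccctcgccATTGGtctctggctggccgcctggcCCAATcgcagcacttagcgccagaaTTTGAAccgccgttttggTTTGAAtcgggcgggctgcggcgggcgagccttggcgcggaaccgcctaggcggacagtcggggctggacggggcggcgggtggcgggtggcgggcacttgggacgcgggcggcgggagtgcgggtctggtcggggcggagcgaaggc
Prc1: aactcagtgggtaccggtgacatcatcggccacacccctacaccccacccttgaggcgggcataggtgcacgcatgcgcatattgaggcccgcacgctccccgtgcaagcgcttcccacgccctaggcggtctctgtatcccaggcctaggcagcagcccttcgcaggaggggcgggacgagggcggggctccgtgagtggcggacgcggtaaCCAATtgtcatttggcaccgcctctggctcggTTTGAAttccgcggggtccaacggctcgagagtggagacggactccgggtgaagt
Chaf1b: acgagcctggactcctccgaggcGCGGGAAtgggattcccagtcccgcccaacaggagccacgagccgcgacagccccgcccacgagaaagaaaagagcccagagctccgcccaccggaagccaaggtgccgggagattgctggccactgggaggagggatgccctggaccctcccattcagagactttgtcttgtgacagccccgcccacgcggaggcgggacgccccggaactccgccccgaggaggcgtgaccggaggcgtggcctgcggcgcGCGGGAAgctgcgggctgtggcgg

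TTTGAA was in 17 of 24 cell division windows (70.83%), in 12.5% of the DNA replication windows and in 17.89% of all windows. TTCCCGC was in 12 of 32 replication windows (37.5%), in no cell division window and in 4.60% of all. Over all switched genes that fell, the shares were 12.91% and 8.62%, near those of all measured genes (12.66% and 7.28%).

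Imprinted growth genes are expressed from a single parental copy and promote or restrain fetal growth. They fell in 16 of 17 cases, with a median of -3.29. With the 2 members that have only a bound set to it, the median was -2.73. Mest had the largest fall among genes detected on all weaned arrays. It read 12.61 to 14.15 on the suckling and 7.21 to 7.45 on the weaned arrays (70.3-fold lower, adjusted p = 8.36e-09, limma). Igf2, a fetal growth factor, read 9.32 to 11.75 and then 5.83 to 6.83, with 2 of 6 weaned arrays well above background. Among 17 genes 12 fell with slide as a block. Dlk1, a marker of preadipocytes, went from 14.48 to 16.38 down to 10.87 to 11.08.

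The fall was under way within the suckling pool. From P4 to P10 Mest fell by 1.49, Igf2 by 1.75, Dlk1 by 1.77 and Plagl1, a zinc finger factor, by 2.18 on the log2 scale. Cdkn1c, an imprinted cell cycle inhibitor, was the member that rose (log2 0.79), and that call was lost with slide as a block (adjusted p = 0.167, limma) and without any of the 4W arrays. Among 11 genes of the fetal let-7 target programme 5 fell and 3 rose, and 3 fell without P4. Igf2bp3, an RNA-binding protein of that programme, was below the background criterion on every weaned array and at least 1.64-fold lower.

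Collagen and other matrix genes fell in 25 of 29 cases, each with no overlap, with a median of -1.87 and none higher. Col1a1 read 15.11 to 15.98 on the suckling and 12.44 to 13.45 on the weaned arrays (6.25-fold lower, adjusted p = 1.63e-06, limma). Mfap4, a microfibril protein, had the clearest separation, from 12.15 to 12.46 down to 7.59 to 7.87 (22.9-fold lower, adjusted p = 1.83e-13, limma). Elastin (Eln) was 3.34-fold lower and well above background on 5 of 6 weaned arrays. With slide as a block 25 members fell and the median was -1.81.

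Of 18 progenitor and fibroblast genes 11 fell and 3 rose, with a median of -0.72. Fap and Meox1 were 3.22-fold and 3.47-fold lower, while Ly6a, which marks stem and progenitor cells, rose 1.83-fold. Endothelial markers were also mostly lower in weaned mice: 11 of 18 fell and 1 rose, with a median of -0.58 (7 fell without 4W). Their part in the matrix result was not tested. The endothelial list had its highest level at P10 (0.63 to 0.69 above each gene's mean). It was at -0.38 to -0.37 at 4W and -0.28 to -0.17 at 8W. The matrix list was highest at P4 (1.04 to 1.19) and lower at P10 (0.48 to 0.58).

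**Figure D3:**
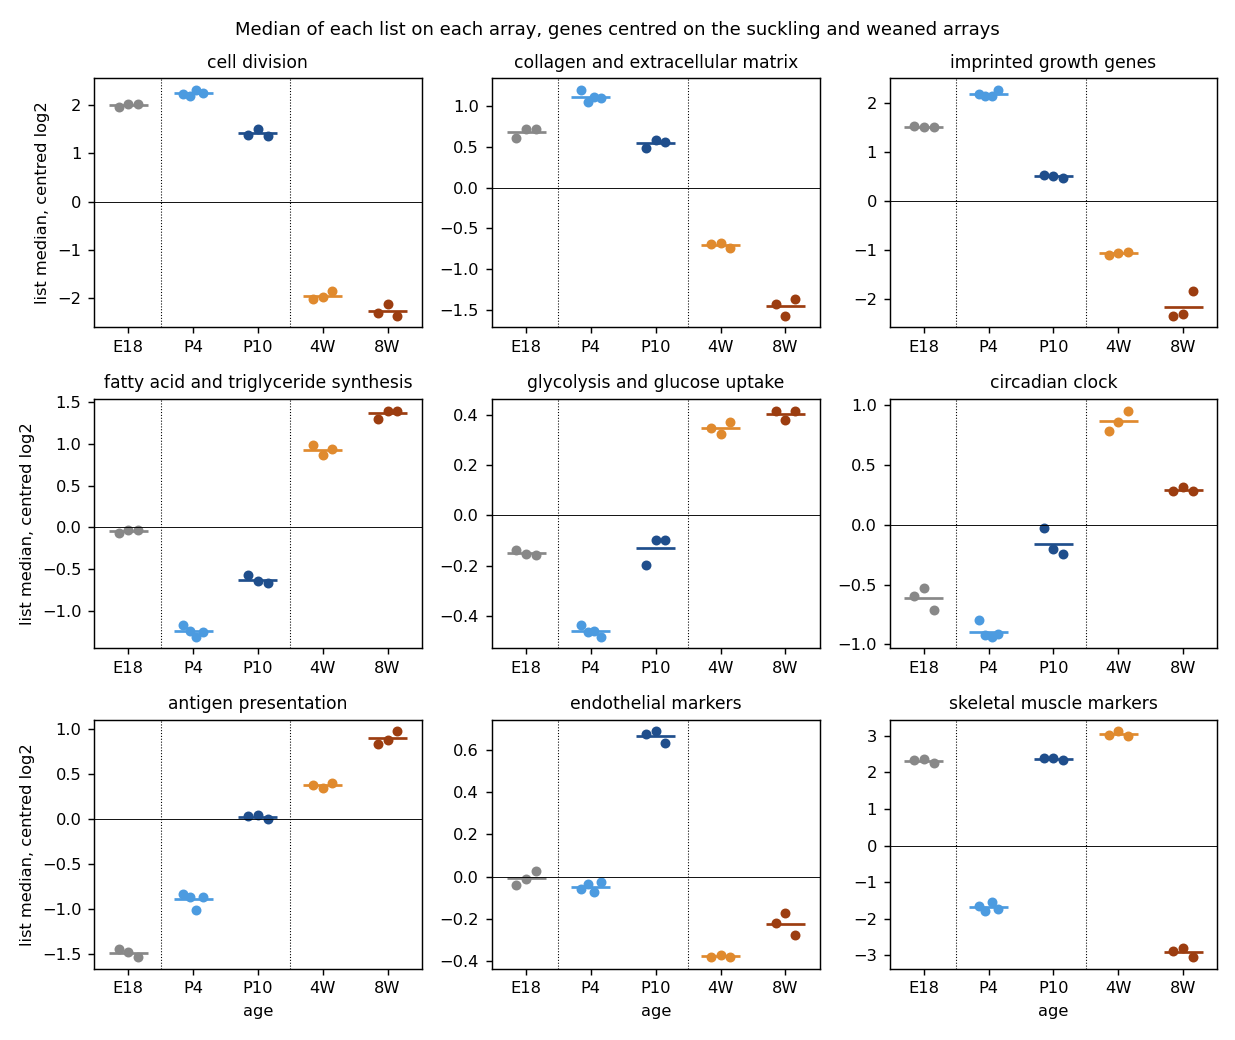
Median level of 9 gene lists on each array (vertical axis, log2 centred for each gene on the mean of the 13 suckling and weaned arrays) by age (horizontal axis); dots are arrays and bars are means. Cell division runs from 2.19 to 2.32 at P4 down to -2.37 to -2.12 at 8W, while skeletal muscle markers are high at P10 and 4W and low at P4 and 8W.

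Antigen presentation rose. Of 18 members 13 were higher and none lower, with a median of 1.09. The class II genes, whose products show peptides to helper T cells, led the list. H2-Ab1 read 10.98 to 12.88 on the suckling and 14.19 to 14.32 on the weaned arrays (5.40-fold, adjusted p = 0.000134, limma), with H2-Aa 7.25-fold and the invariant chain Cd74 4.77-fold higher. P10 lay between P4 and 4W, with H2-Ab1 means of 11.06, 12.85 and 14.23.

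Markers of the cells that carry these proteins did not move together. Of 12 macrophage markers 5 rose and 2 fell (all genes: 51.3% passed), with a median of 0.15. Of 16 lymphocyte markers none rose and 6 fell (12 without P4), where 51.3% of all genes passed. Their part in the antigen presentation result was not tested. Neutrophil and mast cell markers fell in 9 of 13 cases and rose in 1. Their median was -1.59, or -1.19 with the 2 members that have only a bound set to it.

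Complement and acute phase genes rose in 8 of 16 cases and fell in 3 (51.3% of all genes passed). Orm1, an acute phase carrier protein, read at most 7.63 (median 7.26) and then 11.12 to 11.62 (16.9-fold), and haptoglobin (Hp) rose 6.64-fold to 17.39 or more. Complement C3 rose 3.46-fold and C4b 3.96-fold. Several genes best known from liver also rose, such as Cyp2e1, a drug and alcohol oxidase, from 5.22 to 8.04 up to 12.09 to 13.69. Of 14 hepatocyte markers, Alb, Apoa1, Apob, Ttr, Ahsg, Fgg and Afp were well above background on 0 of the 13 arrays. Of the 6 measured, 5 rose and none fell, but Mup1 and Mup3 were well above background on only 3 and 5 of the 13 arrays. Genes that dim could pass the filter through their brighter arrays alone, so nothing is read from this count.

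Other large rises were in steroid, drug and medium-chain metabolism. Hsd11b1, which regenerates active glucocorticoid, read 8.01 to 8.38 and then 14.50 to 15.24, 108-fold higher (log2 6.75 ± 0.15 SE, adjusted p = 5.56e-12, limma). Cyp2b10, a drug oxidase, rose (adjusted p = 6.52e-06, limma) and was well above background on 2 of 7 suckling arrays and all 6 weaned arrays, so no fold is given. Its mean was higher at 4W (13.80) than at 8W (9.82). Acsm3, a medium-chain acyl-CoA synthetase, rose 28.1-fold and amylase Amy1 27.9-fold.

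Amino acid pathways moved in opposite directions. Branched-chain amino acid breakdown, a route by which brown fat uses leucine, isoleucine and valine, rose in 15 of 19 cases and fell in 2, with a median of 0.57. Bcat2, the first step, rose 2.04-fold, Bckdha, a subunit of the committing dehydrogenase, 2.03-fold, and Ivd 2.08-fold. Bckdhb, the partner subunit, was 1.47-fold lower, but its difference was 0.02 under array-median scaling. The phosphatase Ppm1k differed by -0.22, with probes that disagreed and a positive value of 0.09 under 75th percentile scaling.

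Serine, glycine and folate-linked synthesis fell in 11 of 17 cases and rose in 5, but without P4 5 fell and without 8W 6 fell. The median was -0.69, or -0.59 with the 1 member that has only a bound set to it. Psat1, of serine synthesis, was 4.05-fold lower (9.97 to 11.43 against 8.22 to 9.25). Aldh1l1, which removes folate-bound formyl groups, rose 8.36-fold and Chac1, which degrades glutathione, 10.2-fold.

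Clock genes were higher in 11 of 18 cases and lower in 4, with a median of 0.91. Nr1d1, a repressor of the clock loop, read 6.60 to 8.63 and then 10.95 to 11.26 (11.8-fold, adjusted p = 5.13e-06, limma). Dbp, an output factor, rose 10.0-fold and Bhlhe40 6.98-fold. Arntl (BMAL1), the activator that Nr1d1 represses, fell 4.07-fold (5 of 6 weaned arrays well above background), with means of 6.10 at 4W and 8.88 at 8W, and that call was lost with slide as a block (adjusted p = 0.100, limma). The labels give no hour of collection, so age and time of day cannot be told apart.

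Ribosomal protein genes fell in 23 of 23 cases with a median of -0.49, but 4 fell under 75th percentile scaling and none under array-median scaling, where the median was 0.03. Without P4, 15 fell. The respiratory chain, which runs the mitochondrial electron transport that heat production taps, had 3 of 34 genes higher and 3 lower, but 23 higher under 75th percentile scaling and 33 under array-median scaling. Without P10, 22 were higher. For both lists the direction depends on the scaling.

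Skeletal muscle markers varied mostly within the pools. None of the 27 measured passed the test or separated the pools. Their list level ran from -1.78 to -1.54 (P4), 2.33 to 2.40 (P10), 2.99 to 3.12 (4W) and -3.06 to -2.79 (8W). Mean Ckm, muscle creatine kinase, was 5.71 (P4), 10.1 (P10), 11.7 (4W) and 3.54 (8W). Each pool thus held an age with high and an age with low muscle signal, so this comparison could not show whether muscle content changed over weaning. Interferon response genes also followed single ages, with 3 of 22 higher and 1 lower, but 12 higher without P10 and 14 lower without P4. Of 12 developing muscle markers, Myl4 rose by 0.38 on the log2 scale and Myh3 fell, each with no overlap, and 10 did not pass. Myh3 was well above background on 7 of the 13 arrays.

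Among the switched genes, 871 (19.4%) had a gap between the pools that exceeded the range within either pool, 322 of them higher and 549 lower in weaned mice. The genes that follow were picked for at least a 2-fold difference and the widest gap relative to those ranges, so their narrow ranges come from the choice. Ccnd1, the G1 cyclin D1, read 12.68 to 12.81 on all 7 suckling and 9.39 to 9.59 on all 6 weaned arrays (9.53-fold lower, adjusted p = 2.19e-13, limma). Marcksl1, an actin-binding protein, read 9.99 to 10.17 and then had a median of 6.99 with all 6 weaned arrays below the suckling ones, and Nes, the filament protein nestin, 12.51 to 12.62 and 10.68 to 10.90.

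Upward switches of this kind were Cdo1, which oxidises cysteine (13.36 to 13.56 against 15.45 to 15.54), Sc5d, and the lipopolysaccharide co-receptor Cd14 (8.04 to 8.21 against 9.63 to 9.77). With slide as a block the adjusted p of Ccnd1 was 3.16e-10 and that of Sc5d 9.76e-09 (limma).

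**Figure D4:**
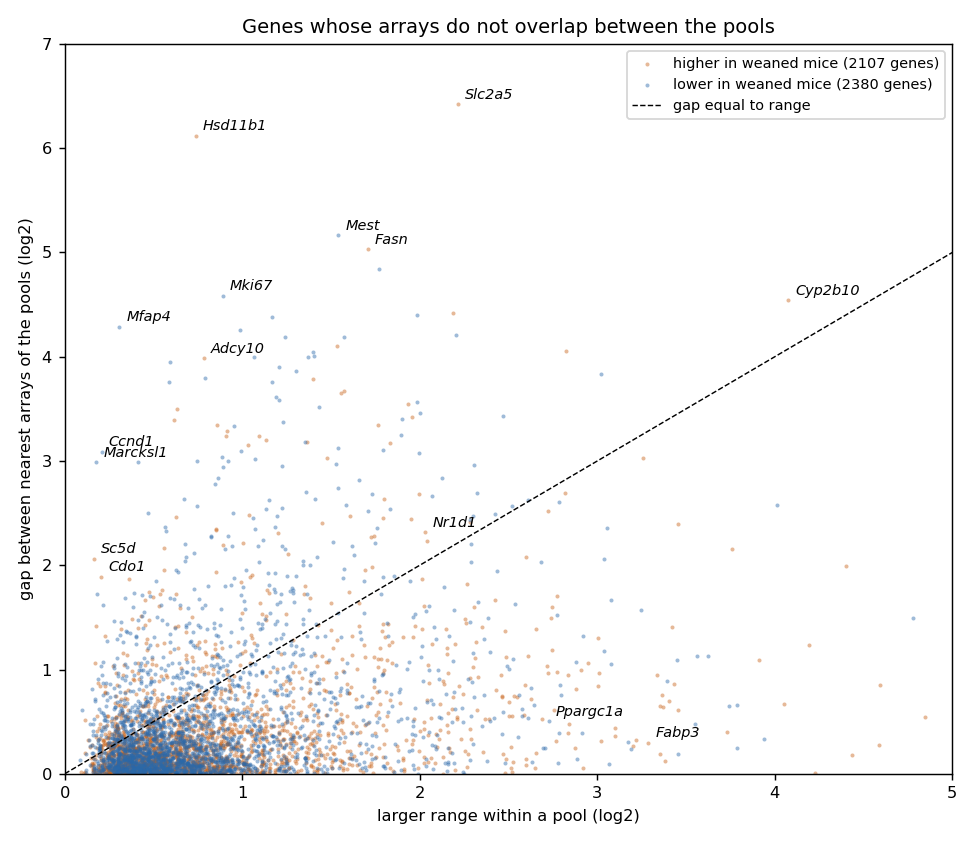
Gap between the nearest arrays of the pools (vertical axis, log2) against the larger of the ranges within a pool (horizontal axis, log2) for the 4487 genes that do not overlap; orange is higher and blue lower in weaned mice, and the dashed line marks equality. Above the line lie 871 genes, with Mfap4, Ccnd1 and Marcksl1 at small ranges and Hsd11b1 and Slc2a5 at large gaps.

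Many switched genes kept moving inside a pool. Over all genes, limma called 8838 (59.3%) between P10 and P4 and 6650 (44.6%) between 8W and 4W. Of the 2380 that were lower in weaned mice, 1287 already passed as lower at P10 than at P4 (27.8% of all genes) and 388 as higher (31.5%). Of the 2107 that were higher, 1227 passed as higher at P10 than at P4 and 169 as lower. Of the genes lower in weaned mice, 618 were lower and 395 higher at 8W than at 4W (all genes: 23.6% and 21.0%). Of those higher in weaned mice, 613 were higher and 389 lower. The members' choice used these same arrays, so nothing is read from these counts.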

How the data were processed

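RNA of whole brown adipose tissue was measured on 16 Agilent arrays, of which 13 entered the comparison. The scanner files hold intensity values, background subtracted and detrended for each array per the file headers, with Feature Extraction 11.5.1.1 per the headers and 11.0.1.1 per the submitters' processing notes. The deposited table of the series gives log2 values. Its columns share a single distribution (largest difference after sorting 0, median 5.80), and a spot's rank moves by at most 1 against the scanner's processed signal, which is what quantile normalization of log2 signals gives. The authors' own steps are not stated in the labels or headers.

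These deposited log2 values were used because the choice of genes is defined on them. Control spots (3671 of 62976) were left out, 2720 marked spot values were set missing, and averaging spots of a probe gave 55681 probes. RefSeq accessions named 27656 probes. Probes had to be well above background on 3 or more of the 13 arrays, and a gene took its kept probe with the highest mean. Of 3771 genes with several, 95 had probes called both ways. Of 1279 switched genes with several kept probes, only 597 had every probe meet the rule in the same direction. A bound ("at least") sets the dim pool at the lowest signal well above background, or its own if higher. No p is printed beside a bound, since the test read the dim values themselves and not the bound.

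The fit was limma 3.58.1 in R 4.3.3 with pool as the only term, two-sided, adjusted over all genes including X and Y, and a fit over 5 ages gave differences within a pool. On simulated data for weaned versus suckling over 15455 genes it recovered 0, 20, 38 and 45 of 50 genes changed by 0.25, 0.5, 1 and 2 on the log2 scale, with 6 false among 109 calls. The simulated arrays of a pool were independent, with no difference between its ages. These counts therefore do not carry over to the data, where the ages of a pool differ. Named genes were a panel, the largest differences among switched genes, the extreme members of each list, and those with the widest gap relative to range; some genes that this allows are not reported here. The members and lists were chosen with earlier results of these data known. Alternatives were other scaling, filters, probe rules, blocks, and leaving out arrays or ages. The number of arrays limits the precision.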

Additional observations from a re-analysis of the deposited data

Results flagged for a closer look

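In the named genes, 408 sets of 4 to 7 arrays were examined for an array far from the others (the gap to its neighbour over the whole range of the set). In 30 (7.35%) this share passed Dixon's 95% limit. Chance passes it in about 1 set of 20 when the arrays of a set come from a single group. Here the suckling and weaned sets pool different ages, and the P4 set lies within the suckling set. The 7.35% can therefore not be set against that rate. P4 replicate 1 and P10 replicate 1 were the 2 suckling arrays on the slide that held all 6 weaned arrays, and the part of the slide in their values below was not tested.

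Among the 4 P4 arrays, replicate 1 stood apart as the highest for Cyp2b10 (0.985), Col14a1 (0.835) and Psat1 (0.842) and as the lowest for H2-Q10 (0.907) and Rps7 (0.947). P4 replicate 3 was the highest for Pimreg (0.888), Mfap4 (0.912), Fabp3 (0.936), Bckdhb (0.896) and Ppm1k (0.866) and the lowest for Tk1 (0.939).

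Among the 7 suckling arrays, P10 replicate 1 was the lowest for Ucp1 (0.668) and Ppm1k (0.586) and the highest for Stard4 (0.633) and Retn (0.676). P4 replicate 3 was the highest for Mfap4 (0.62), Hmgcs1 (0.764) and Cebpb (0.649) and the lowest for Pgd (0.637), and P4 replicate 1 the highest for Cpt1a (0.697).

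Among the 6 weaned arrays, 8W replicate 2 was the highest for Stfa1 (0.982) and Adra1d (0.953) and the lowest for Pimreg (0.658) and Ly6a (0.647). The highest array was 4W replicate 1 for Cenph (0.657) and Igf2bp3 (0.879), 4W replicate 2 for Iqgap3 (0.978) and 4W replicate 3 for Ticrr (0.974). The lowest was 8W replicate 3 for Rpl5 (0.85) and 4W replicate 2 for Asb6 (0.684).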

How the results depend on the processing

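Genes past the test numbered 7642 and stayed within 1.5 times that under most alternatives. Fewer passed with slide as a block (4123; 1836 higher, 2287 lower), on the arrays of slide 2 only (4190; 1881 and 2309) and with age as a random block (2813; 1309 and 1504). Array-median scaling gave 6189 higher and 2091 lower, and 3298 and 1003 genes that did not overlap. Without P10, 8067 genes did not overlap (3961 higher, 4106 lower), without 4W 6997 (3336 and 3661), and without 8W 3273 were higher; fewer arrays overlap less often by construction. Leaving out single arrays gave 6881 to 7990 calls. The replicate numbers did not pair the samples (correlations of deviations from -0.08 to 0.31), and the replicate block gave 6213 calls.

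The sign turned under array-median scaling for the ribosomal median (0.0252), Pdk4 (0.33), Cpt1b (0.40), Tpi1 (0.26), Bckdhb (0.0170), Ppm1k (0.37), C1s1 (0.11) and Asb6 (0.0638). It turned for Ppm1k under 75th percentile scaling (0.0856) and the mean of probes (0.30), for Pde4d with normexp (0.0617), and for the medians of the fetal list with probes above background on all 13 arrays (0.0896), of the insulin list with the mean of probes (-0.0774) and of cartilage markers with no filter (0.26). The causes were not tested. Of 136 named genes, 24 lost their call with age as a random block, 22 with slide as a block and 19 on slide 2 only. Leaving out P4 lost 15, leaving out 8W lost 13, and array-median scaling lost 10. Those 10 leave out the 7 named genes whose sign turned under that scaling. Of these, Tpi1, Bckdhb, C1s1 and Asb6 lost their call as well. Depth limits the dim genes: 195 switched genes were not well above background on any weaned array and 15 on any suckling array, and their folds are bounds.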

Other observations

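Some cell markers changed in ways the comparison above does not cover. Of 10 nerve and Schwann cell markers measured, 3 rose and 4 fell (51.3% of all genes passed). Tyrosine hydroxylase Th, of sympathetic nerve, rose by 0.94 and the myelin gene Mbp by 0.95 on the log2 scale, while the peripheral myelin genes Pmp22 and Prx fell by 0.97 and 1.33. Dbh and Npy, also of sympathetic nerve, were well above background on 0 of 13 arrays. Ms4a1, a B cell surface protein, was well above background on all 7 suckling and no weaned array and was at least 4.93-fold lower in weaned mice. Erythroid markers fell in 6 of 9 cases, Slc4a1, the red cell anion exchanger, by 2.61.

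Probes without a gene name also switched. Of 14154 such probes kept, 1178 were higher and 1680 lower in weaned mice with no overlap (20.2%).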
